A study of Bos taurus with 2 samples.

Results

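The mir-10 and mir-196 families are miRNAs encoded within the HOX gene clusters, and their reads were examined in the bovine mammary gland (MG). Members were taken by name from the table of known bovine miRNAs, as the entries mir-10a, mir-10b, mir-196a and mir-196b on either hairpin arm. This gave 4 of the 283 known miRNAs, which were mir-10a-5p, mir-10b-5p, mir-196a-5p and mir-196b-5p, out of 884 unique miRNAs listed in all. One small RNA library came from the MG of a lactating Holstein dairy cow, and 1 library came from the MG of a non-lactating Holstein dairy cow. The lactation cow was multiparous, 6 years old and 2 months into lactation. The non-lactation cow was multiparous, 4 years old and not pregnant. Both libraries were made from MG tissue, so that alveolar epithelium, stroma, fat and vessels were read together. By histology, the paper describes more stroma, connective tissue and fat in the non-lactating MG than in the lactating MG. With 1 animal per condition, lactation cannot be told apart from age or from the individual cow, and differences between the libraries lack a check by replicates. The paper also ran a microarray on pooled RNA, with further cows added to each stage, and it was not analysed here.

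A miRNA is cut from a hairpin precursor, and either arm of that hairpin (5p or 3p) can yield a mature strand. The strand guides silencing proteins to mRNAs that pair with its seed, the bases from position 2 to position 8. HOX genes encode transcription factors that set position along the body axis, and they stand in 4 clusters in mammals, named HOXA to HOXD. Genes of the mir-10 and mir-196 families lie between or inside HOX genes and are transcribed in the same orientation as them. In mouse, mir-196 directs cleavage of Hoxb8 mRNA. In human breast cancer cells, mir-10b is known for its link to migration and invasion, with HOXD10 as a target.

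The 4 most abundant sequences are shown because each pair has a single seed and differs by a single base, so that the separation of the paralogs rests on that base. They are written 5′ to 3′ as deposited, with the seed in capitals.
mir-10a-5p: uACCCUGUagauccgaauuugu
mir-10b-5p: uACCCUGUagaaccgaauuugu
mir-196a-5p: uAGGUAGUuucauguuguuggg
mir-196b-5p: uAGGUAGUuuccuguuguuggga
Counted from the 5′ end, mir-10a-5p and mir-10b-5p differ by U12A, and mir-196a-5p and mir-196b-5p differ by A12C. The listed mir-196b-5p also carries 1 further base at its 3′ end (23 nt, against 22 nt for mir-196a-5p). The mir-10 and mir-196 families do not resemble each other in sequence. The longest stretch shared by mir-10a-5p and mir-196a-5p was 4 nt.

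Of the 883 miRNAs with a value in both libraries, the seed ACCCUGU was found at positions 2 to 8 of the 2 mir-10 members alone (0.227% of the miRNAs), and it occurred nowhere else in any listed sequence. The seed AGGUAGU was found at positions 2 to 8 of 3 miRNAs (0.34%). The one that is not a member, mir-2288-3p, had 0 reads in lactating MG and 3 in non-lactating MG. The same letters stood a base further in, at positions 3 to 9, in 14 miRNAs (1.59%), among them let-7a-5p. The let-7 family is known for its high level in differentiated tissue. The shifted match is shown with the 7 shared letters in capitals.
let-7a-5p: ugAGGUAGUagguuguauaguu
These 14 miRNAs held 303888 RPM (reads scaled to a total of 1e6 clean reads) in lactating MG and 257740 RPM in non-lactating MG. A shared stretch of letters is a description, and pairing with targets was not tested.

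In the BTA 4.0 coordinates of the tables, the mir-10a hairpin lies on chromosome 19 (39116883 to 39116991, plus strand) and the mir-10b hairpin on chromosome 2 (21426193 to 21426291, minus strand). The mir-196b hairpin lies on chromosome 4 (71605730 to 71605814, plus strand). For mir-196a there are 2 hairpins, on chromosome 19 (39066680 to 39066781, plus strand) and on chromosome 5 (28892094 to 28892178, minus strand). The mature sequence listed for the hairpin on chromosome 5 is that of the other with 1 further base at the 3′ end. One set of counts is given for both, so reads of mir-196a-5p could not be split between the hairpins. In the RefSeq gene order of the assembly ARS-UCD2.0, mir-10a stands between HOXB5 and HOXB4 within the span of HOXB3. There, mir-10b stands within HOXD4, one mir-196a gene within HOXB9, the other between HOXC9 and HOXC10, and mir-196b between HOXA10 and HOXA9. Each of the 4 HOX clusters thus holds at least 1 of these miRNA genes, and the HOXB cluster holds a gene of each family.

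Unless all isomiR reads are named, the values given are reads of a miRNA's most abundant sequence. An isomiR is a variant of a miRNA in length or sequence, and the isomiR reads include the most abundant sequence. RPM are scaled to the clean reads of the library, where clean reads are those that remained after the authors' filters on quality, adaptors and RNA of other kinds. The non-lactation library had 1.33 times as many clean reads as the lactation library. The listed most abundant sequences summed to 5745961 reads in lactating MG and 7879028 reads in non-lactating MG. Intervals are exact 95% Clopper-Pearson intervals, except that comparisons between members use the exact interval of a conditional odds ratio. All of them describe the counting error of reads alone. Reads copied by PCR do not stand for separate molecules, and the intervals do not allow for that.

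The mir-10a-5p reads were 3.18-fold lower in lactating MG, whereas mir-10b-5p, which has the same seed, was read at nearly the same level in both. mir-10a-5p had 594 reads in lactating MG and 2521 reads in non-lactating MG, or 49.6 RPM (95% interval 45.7 to 53.8) against 158 RPM (152 to 164). The 2 intervals lie far apart. mir-10b-5p had 1235 reads in lactating MG and 1630 reads in non-lactating MG, or 103 RPM (97.5 to 109) against 102 RPM (97.2 to 107). The mir-10b-5p intervals overlap almost fully.

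The mir-196 members were read well below the mir-10b-5p level, and neither passed the test across all miRNAs. mir-196a-5p had 350 reads in lactating MG and 568 reads in non-lactating MG, or 29.3 RPM (26.3 to 32.5) against 35.6 RPM (32.7 to 38.6). These intervals do not overlap, although their ends are close. mir-196b-5p had 347 reads in lactating MG and 459 reads in non-lactating MG, or 29.0 RPM (26.0 to 32.2) against 28.7 RPM (26.2 to 31.5). In the lactation library, the most abundant sequences of mir-196a-5p and mir-196b-5p were therefore read at levels that do not differ beyond counting error.

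**Figure D1:**
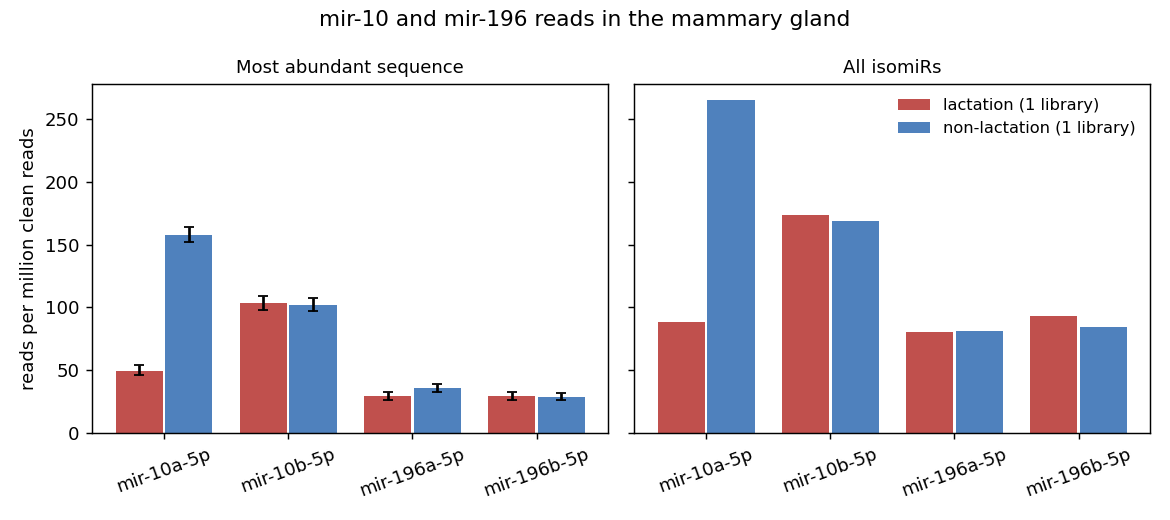
Reads of the 4 members in RPM in lactating MG (red, left bar of each pair) and the non-lactation library (blue), for the most abundant sequence (left panel, with exact 95% intervals) and for all isomiRs (right panel, no intervals drawn). mir-10a-5p stands at 49.6 RPM in lactating MG and 158 RPM in non-lactating MG, while the other 3 members have bars of similar height in both.

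The order of the levels differed between the libraries. In the lactation library the order was mir-10b-5p, mir-10a-5p, mir-196a-5p and mir-196b-5p, the last 2 not being separable. In the non-lactation library mir-10a-5p came first, followed by mir-10b-5p, mir-196a-5p and mir-196b-5p, and each interval lay apart from the next. Both orders changed with all isomiR reads. In lactating MG the isomiR order was mir-10b-5p (174 RPM), mir-196b-5p (93.4 RPM), mir-10a-5p (88.1 RPM) and mir-196a-5p (80.1 RPM). In non-lactating MG mir-196b-5p (84.2 RPM) then stood above mir-196a-5p (81.2 RPM), with both below the mir-10 members. Among the 283 known miRNAs, mir-10a-5p took rank 97 by reads in lactating MG and rank 60 in non-lactating MG. The ranks of mir-10b-5p were 82 and 76, those of mir-196a-5p 108 and 102, and that of mir-196b-5p was 109 in both. All 4 members thus stood in the upper part of the known miRNAs by reads, and mir-10a-5p made up 0.0105% of the listed known reads in lactating MG and 0.0329% in non-lactating MG.

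The ratio of RPM, lactation over non-lactation, was 0.314 for mir-10a-5p (95% interval 0.287 to 0.344). With Bonferroni adjustment over 883 miRNAs, the two-sided Fisher's exact test of read counts gave an adjusted p of 4.83e-171 for mir-10a-5p. This test compares the reads of 2 libraries and not the 2 conditions. The ratio of mir-10b-5p was 1.01 (0.938 to 1.09), that of mir-196b-5p was 1.01 (0.875 to 1.16), and that of mir-196a-5p was 0.822 (0.718 to 0.941). All 3 had an adjusted p of 1, and for mir-196a-5p the unadjusted p of Fisher's exact test was 0.00411. The intervals of mir-10b-5p and mir-196b-5p both hold 1, and that of mir-196b-5p, with fewer reads, is the wider.

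At a 2-fold ratio, 1 of the 4 members was lower in lactating MG and none was higher. Over the 273 miRNAs with at least 100 summed reads, 22.7% were lower by that measure and 28.9% were higher. By Fisher's exact test with Bonferroni adjustment, 1 of the 4 members was lower and 0 were higher, against 31.9% lower and 42.1% higher of the same 273 miRNAs. A single lower member among 4 is thus near the background share. The median log2 ratio was -0.13 over the 4 members and 0.24 over the 273 miRNAs. Of the 188 known miRNAs with at least 100 summed reads, 13 had a lower ratio than mir-10a-5p and 82 a lower ratio than mir-10b-5p.

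**Figure D2:**
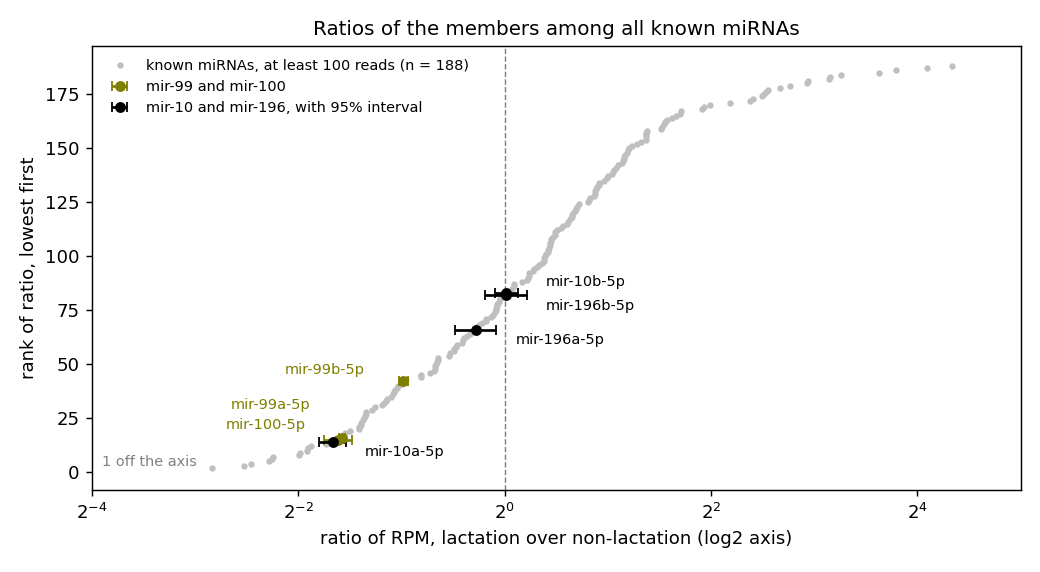
Ratio of RPM, lactation over non-lactation (horizontal log2 axis), against its rank from the lowest among the 188 known miRNAs with at least 100 summed reads (grey points; 1 of them, listed at 0 in lactation, lies off the axis). Black points are the 4 members and olive points are mir-99a-5p, mir-99b-5p and mir-100-5p, with exact 95% intervals: mir-10a-5p lies at 0.314 beside mir-100-5p and mir-99a-5p, and mir-10b-5p and mir-196b-5p lie at 1.01.

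The direction of mir-10b-5p and mir-196b-5p depended on how the libraries were scaled. With TMM factors, which centre on the bulk of the miRNAs, the ratio was 0.843 for mir-10b-5p and 0.841 for mir-196b-5p, and with DESeq2 size factors it was 0.831 and 0.829. Under TMM factors, mir-10b-5p and mir-196a-5p passed Fisher's exact test with Bonferroni adjustment (adjusted p of 0.00520 and 1.88e-05) and mir-196b-5p did not (adjusted p of 1). The median log2 ratio of the 273 miRNAs moved with the scaling, being 0.24 with clean reads, -0.02 with TMM factors and -0.05 with DESeq2 size factors. Relative to the clean-read median, the log2 ratio was -1.91 for mir-10a-5p, -0.22 for mir-10b-5p, -0.52 for mir-196a-5p and -0.22 for mir-196b-5p. For the most abundant sequence, the log2 ratios of all 4 members thus lay below that median, and that of mir-10a-5p lay furthest below it. The split of all miRNAs at 2-fold also moved, with 62 lower and 79 higher under clean reads and 71 lower and 59 higher under TMM factors. mir-10a-5p was lower under every scaling run, with ratios from 0.236 unscaled to 0.339 with isomiR sums as totals.

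**Figure D3:**
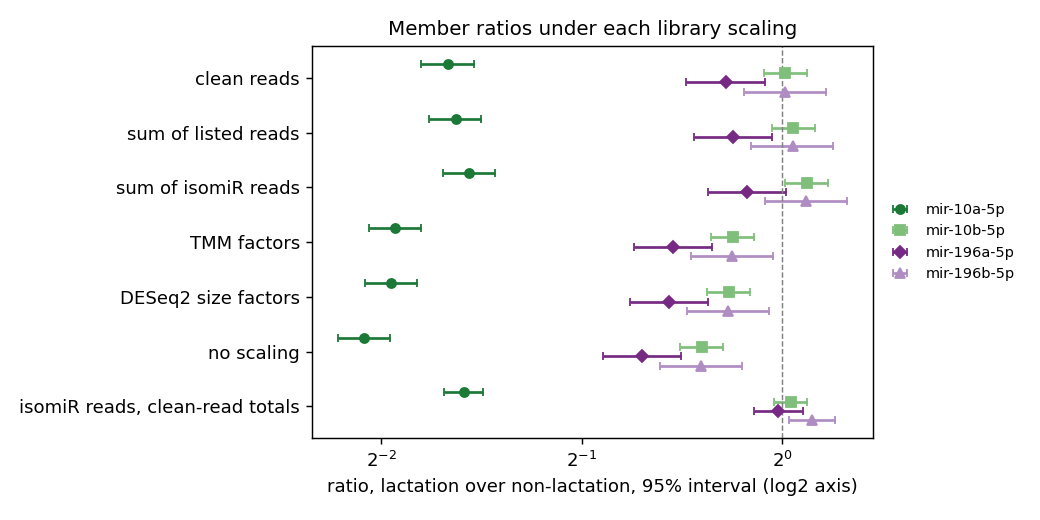
Ratio of each member, lactation over non-lactation (horizontal log2 axis, exact 95% intervals), under 6 library scalings for the most abundant sequence and, in the last line, for all isomiR reads with clean-read totals. mir-10a-5p stays between 0.236 and 0.339, whereas mir-10b-5p and mir-196b-5p lie above 1 with clean reads (1.01 each) and below 1 with TMM factors (0.843 and 0.841).

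The difference between 2 members can be measured without any scaling, as the ratio of their ratios, and all 6 pairs were compared. mir-10a-5p was lower relative to mir-10b-5p by a factor of 0.311 (95% interval 0.276 to 0.350), with a Bonferroni-adjusted p over the 6 pairs of 1.10e-90 by Fisher's exact test. Its ratio was also 0.382 times that of mir-196a-5p (0.325 to 0.451), with an adjusted p of 4.72e-30. Against mir-196b-5p the factor was 0.312 (0.263 to 0.369), with an adjusted p of 3.91e-41. mir-10a-5p thus differed from each of the other members in these libraries. Pairs of other miRNAs were not compared, so it is not known how common such differences are. Between the libraries, Fisher's exact test called 31.9% of the 273 miRNAs lower and 42.1% higher. One of the hairpins of mir-196a-5p, on chromosome 19, lies 50.1 kb away in the same HOXB cluster. The mir-196a-5p count also covers its hairpin on chromosome 5, so the neighbouring hairpin could not be compared with mir-10a on its own.

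Among the other 3 members the differences were small. The ratio of mir-10b-5p was 1.23 times that of mir-196a-5p (1.05 to 1.44), with an adjusted p of 0.0480 by Fisher's exact test, and this call was lost with all isomiR reads (1.04, 0.942 to 1.16, adjusted p of 1). mir-196a-5p over mir-196b-5p gave 0.815 (0.669 to 0.993), with an adjusted p of 0.234. mir-10b-5p over mir-196b-5p gave 1.00 (0.853 to 1.18), with an adjusted p of 1. The interval of the last pair holds 1, and differences within it were not detectable at this depth.

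The leading paralog of the mir-10 seed was not the same in the 2 libraries. mir-10a-5p held 32.5% of the mir-10 reads in lactating MG (95% interval 30.3 to 34.7) and 60.7% in non-lactating MG (59.2 to 62.2). mir-10b-5p was read 2.08 times as often as mir-10a-5p in lactating MG, and mir-10a-5p 1.55 times as often as mir-10b-5p in non-lactating MG. The summed mir-10 reads, which share the seed, were 1829 in lactating MG and 4151 in non-lactating MG, a ratio of 0.588 (0.556 to 0.621). All isomiR reads gave the same order, with 33.6% mir-10a-5p in lactating MG and 61.1% in non-lactating MG.

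In the mir-196 pair the reads were split almost evenly. mir-196a-5p held 50.2% of them in lactating MG (46.4 to 54.0) and 55.3% in non-lactating MG (52.2 to 58.4). With all isomiR reads it held 46.2% (44.0 to 48.3) in lactating MG and 49.1% (47.1 to 51.0) in non-lactating MG. Which of the mir-196 paralogs had more reads therefore depended on the reads counted. The summed mir-196 reads were 697 in lactating MG and 1027 in non-lactating MG, a ratio of 0.906 (0.822 to 0.998), and 1.05 (0.989 to 1.11) with all isomiR reads.

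**Figure D4:**
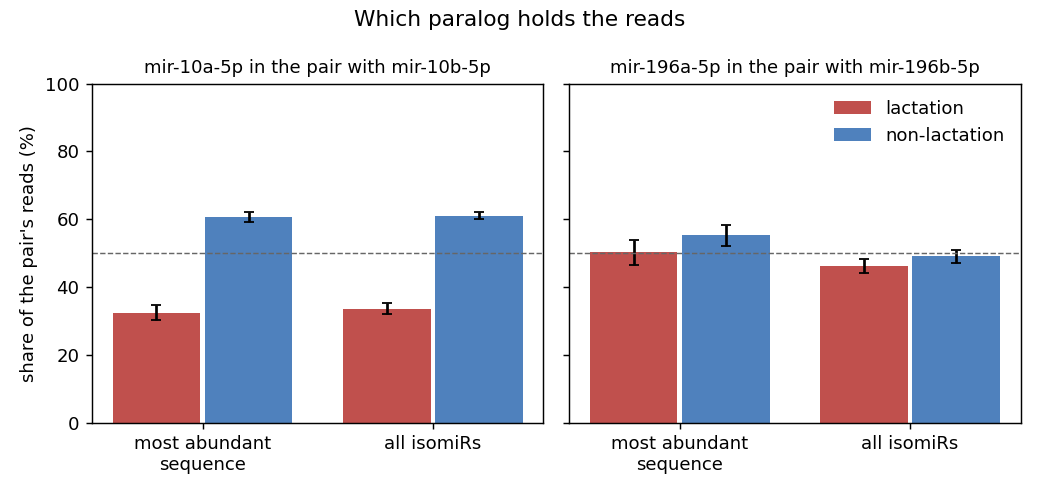
Share (%) of the reads of a pair held by mir-10a-5p (left panel, pair with mir-10b-5p) and by mir-196a-5p (right panel, pair with mir-196b-5p) in lactating MG (red, left bar) and the non-lactation library (blue), for the most abundant sequence and for all isomiRs, with exact 95% intervals and a dashed line at equal shares. The mir-10a-5p share is 32.5% in lactating MG and 60.7% in non-lactating MG, on opposite sides of the line, while all mir-196a-5p shares lie near it.

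The isomiR reads and the number of their kinds were also compared. mir-10a-5p had 1054 isomiR reads of 19 kinds in lactating MG and 4231 reads of 26 kinds in non-lactating MG. mir-10b-5p had 2080 reads of 27 kinds in lactating MG and 2696 reads of 23 kinds in non-lactating MG. mir-196a-5p had 958 reads of 9 kinds in lactating MG and 1296 reads of 11 kinds in non-lactating MG, and mir-196b-5p had 1117 reads of 17 kinds and 1345 reads of 15 kinds in the same order. mir-196a-5p had few kinds for its depth: none of the 20 known miRNAs nearest in isomiR reads had fewer kinds in lactating MG, and 1 of 20 did in non-lactating MG. The medians of those neighbours were 17 kinds in lactating MG and 17.5 kinds in non-lactating MG. For mir-196b-5p, 6 of the 20 neighbours had fewer kinds in lactating MG and 5 in non-lactating MG. The numbers were 10 and 8 for mir-10a-5p and 10 and 9 for mir-10b-5p, lactation first.

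For mir-10 most reads were of a single sequence, and for mir-196 most were not. The most abundant sequence made up 56.4% of the mir-10a-5p isomiR reads in lactating MG (53.3 to 59.4) and 59.6% in non-lactating MG (58.1 to 61.1). For mir-10b-5p the shares were 59.4% in lactating MG (57.2 to 61.5) and 60.5% in non-lactating MG (58.6 to 62.3). mir-196b-5p had the lowest shares, at 31.1% in lactating MG (28.4 to 33.9) and 34.1% in non-lactating MG (31.6 to 36.7). Over the 138 known miRNAs with at least 100 reads in each library, the median share was 47.2% in lactating MG and 46.2% in non-lactating MG. The quartiles were 37.6% and 60.4% in lactating MG and 36.1% and 61.6% in non-lactating MG. The mir-10 members were thus above the median of known miRNAs in both libraries, but within the quartiles. The mir-196 members were below the median. Of these, mir-196b-5p lay below the lower quartile in both libraries and mir-196a-5p in lactating MG only.

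The share of mir-196a-5p differed between the libraries. It was 36.5% in lactating MG (33.5 to 39.7) and 43.8% in non-lactating MG (41.1 to 46.6), with a Bonferroni-adjusted p over the 4 members of 0.00209 by Fisher's exact test. Larger differences in both directions were found among the 138 known miRNAs, for which they were not tested. Examples are mir-148b-3p (35.4% and 54.6%) and mir-200b-3p (41.8% and 23.1%), lactation first. A difference of this size is thus not particular to mir-196a-5p. The differences of the other 3 members, between -1.08 and -3.23 percentage points, had adjusted p-values from 0.235 to 1. With all isomiR reads the ratio of mir-196a-5p was accordingly 0.987 (0.907 to 1.07), against 0.822 for its most abundant sequence. The interval of the isomiR ratio holds 1, and that of the most abundant sequence does not. The isomiR ratios of the other members were 0.332 (0.310 to 0.356) for mir-10a-5p, 1.03 (0.972 to 1.09) for mir-10b-5p and 1.11 (1.02 to 1.20) for mir-196b-5p.

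**Figure D5:**
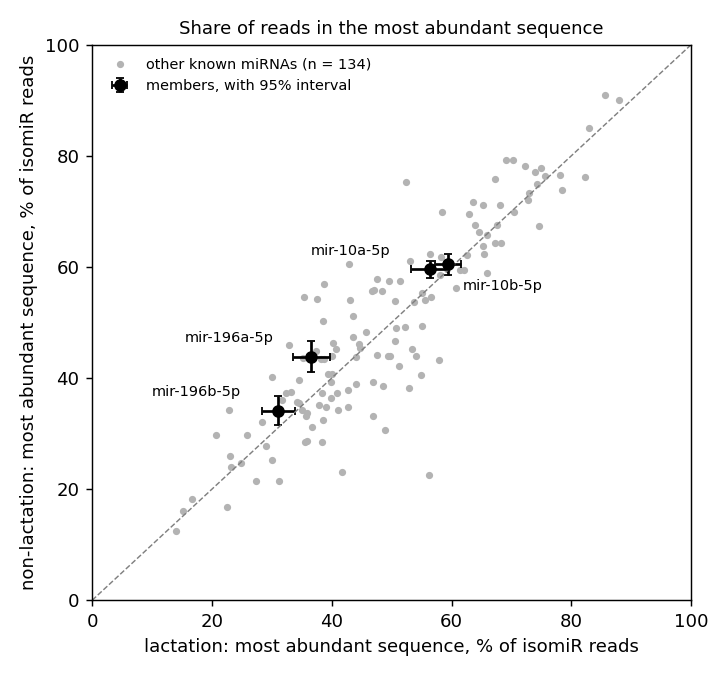
Reads of the most abundant sequence as a share (%) of all isomiR reads, in lactating MG (horizontal axis) and the non-lactation library (vertical axis), for the 4 members (black, exact 95% intervals) and 134 other known miRNAs with at least 100 reads in each library (grey). The mir-10 members lie between 56.4% and 60.5% in both libraries, and mir-196a-5p lies above the dashed line of equal shares at 36.5% in lactating MG and 43.8% in non-lactating MG.

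No 3p arm of the members was listed among the known miRNAs, but 3 entries of the table of predicted miRNAs (prefix CN) have the hairpin coordinates of a member. Their most abundant sequences are shown because they come from the opposite arm of the same hairpins, with no part in capitals.
CN-222-3p: caaauucguaucuaggggaau
CN-149-3p: cagauucgauucuaggggaau
CN-384-3p: ucgacagcacgacacugccuuca
CN-222-3p comes from the mir-10a hairpin, CN-149-3p from the mir-10b hairpin and CN-384-3p from the mir-196b hairpin. In the listed hairpins of 109 nt and 99 nt, the 2 arms were separated by 19 bases in mir-10a and 18 bases in mir-10b. In the 85 nt hairpin of mir-196b they were separated by 12 bases.

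The mir-10 hairpins were read almost wholly from the 5p arm. CN-222-3p had 4 reads in lactating MG and 3 reads in non-lactating MG, so that the 5p arm held 99.3% of the mir-10a hairpin reads in lactating MG (98.3 to 99.8) and 99.9% in non-lactating MG (99.65 to 99.98). CN-149-3p had 5 reads in lactating MG and 4 reads in non-lactating MG, and the 5p arm of mir-10b held 99.6% in lactating MG (99.1 to 99.9) and 99.8% in non-lactating MG (99.4 to 99.9). The 3p counts are close to the lowest value above 0 in the tables, 3 reads. The ratio of CN-222-3p was 1.78 with an interval from 0.301 to 12.1, which is too wide to say whether the 3p arm of mir-10a moved with its 5p arm.

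The mir-196b hairpin gave more of its 3p arm. CN-384-3p had 52 reads in lactating MG and 54 reads in non-lactating MG, a share of the hairpin of 13.03% (9.89 to 16.7) and 10.5% (8.01 to 13.5), lactation first. Fisher's exact test of the 5p share between the libraries gave a Bonferroni-adjusted p over 3 hairpins of 0.759 for mir-196b, 0.0857 for mir-10a and 1 for mir-10b, so that none passed. Over 117 hairpins with both arms listed and at least 100 summed reads, the larger arm held a median of 98.2% of the reads, and in 48 of them it held over 99%. The mir-10 hairpins were among those 48, and mir-196b lay below the median.

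The nearest relatives of mir-10 in sequence are mir-99a, mir-99b and mir-100, which lie outside the HOX clusters and belong to the same superfamily of miRNAs. Their sequences are shown because a stretch that begins within the seed and runs past it matches one of mir-10, shifted by a base. Seeds are in capitals.
mir-99a-5p: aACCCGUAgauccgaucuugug
mir-99b-5p: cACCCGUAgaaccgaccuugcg
mir-100-5p: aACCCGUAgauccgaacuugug
mir-10a-5p shares 11 nt with mir-100-5p, at positions 7 to 17 of mir-10a-5p and 6 to 16 of mir-100-5p. It shares 10 nt with mir-99a-5p, and mir-10b-5p shares 10 nt with mir-99b-5p. Their seed, ACCCGUA, is not that of mir-10.

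Known miRNAs with levels most like those of each member were found by the Euclidean distance over log2 RPM in the 2 libraries, among 183 known miRNAs other than the members that had at least 100 summed reads and were at 0 in neither library. The nearest to mir-10a-5p was mir-100-5p, at a distance of 0.15, with 562 reads in lactating MG and 2302 reads in non-lactating MG. The ratio of mir-100-5p was 0.326 (0.297 to 0.357), and its interval overlaps that of mir-10a-5p. A miRNA picked for near levels in both libraries has a similar ratio by construction. mir-99a-5p had a similar ratio, 0.336 (0.329 to 0.342), at a much higher level, with 1000.1 RPM in lactating MG and 2980 RPM in non-lactating MG. mir-99b-5p had a ratio of 0.506 (0.491 to 0.523). With all isomiR reads, the ratio of mir-100-5p was 0.274 (0.260 to 0.288) and no longer overlapped that of mir-10a-5p. The second nearest to mir-10a-5p was mir-99a-3p, at a distance of 0.47.

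mir-10b-5p lay nearest to mir-15a-5p, at a distance of 0.39 and with a ratio of 0.881 (0.822 to 0.943), and then to mir-181b-5p, at 0.45. Both mir-196a-5p and mir-196b-5p lay nearest to mir-379-5p, at 0.20 and 0.27, whose ratio was 0.773 (0.670 to 0.891). The second nearest of the 183 were mir-130a-3p for mir-196a-5p, at 0.51, and mir-193b-3p for mir-196b-5p, at 0.43. The mir-196 paralogs, which were not among the miRNAs searched, lay at a distance of 0.31 from each other. A likeness over 2 libraries describes levels only.

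The let-7 family members let-7a-5p, let-7f-5p and mir-98-5p were set beside mir-196 for the shifted stretch they share with its seed. They had ratios of 1.354 (1.351 to 1.357) for let-7a-5p, 0.941 (0.939 to 0.943) for let-7f-5p and 1.95 (1.85 to 2.05) for mir-98-5p. The levels of let-7a-5p, 108630 RPM in lactating MG and 80226 RPM in non-lactating MG, were far above those of the mir-196 members.

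The hairpins of mir-10a and mir-196a on chromosome 19 were the nearest listed to each other, while the other members stood far from any listed hairpin. On chromosome 5, mir-148b-3p lay 314 kb from the second mir-196a hairpin, with 1253 reads in lactating MG and 1078 reads in non-lactating MG (ratio 1.55). On chromosome 4, the nearest entry to mir-196b was CN-386-3p at 355 kb, with 0 reads in lactating MG and 4 in non-lactating MG, and the nearest known miRNA was mir-148a-3p at 1063 kb, with 60541 and 10630 reads in the same order (ratio 7.60). On chromosome 2, the nearest entry to mir-10b was CN-117-5p at 7382 kb, with 0 and 7 reads, and the nearest known miRNA was mir-128-3p, with 1315 reads in lactating MG and 679 reads in non-lactating MG.

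Markers of cell types moved between the libraries as well. Of 6 epithelial miRNAs (the mir-200 family and mir-205-5p), 5 were called higher in lactating MG and 1, mir-205-5p, was called lower, and they summed to 12385 RPM in lactating MG and 2596 RPM in non-lactating MG. Of 5 miRNAs of stroma and smooth muscle, 2 were called higher (mir-143-3p, ratio 2.35, and mir-145-5p, 1.17). Another 2 were called lower (mir-199a-3p, 0.211, and mir-199b-5p, 0.265). The 5 summed to 8626 RPM and 14522 RPM, lactation first. Of these sums, mir-199a-3p alone held 2100 RPM and 9968 RPM, so the direction of the sum rests on that miRNA. Of 3 miRNAs of striated muscle, 2 were called higher, with sums of 4480 RPM in lactating MG and 696 RPM in non-lactating MG. Of 5 blood cell miRNAs, 2 were called higher and 1 lower (128 RPM in lactating MG and 107 RPM in non-lactating MG, with mir-144-3p at 0 in non-lactating MG), and both endothelial miRNAs were called higher (487 RPM and 165 RPM in the same order). The epithelial miRNAs that mark the labelled tissue were present in both libraries. Fewer cells of a type and less RNA per cell cannot be told apart in MG tissue, and the part of these markers in the mir-10a-5p ratio was not tested.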

How the data were processed

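Small RNA of 2 MG libraries was sequenced on a Genome Analyzer. The authors filtered out adaptors, reads of low quality and RNA of other kinds, mapped what remained to miRBase 17 and to the bovine genome BTA 4.0 with ACGT101-miR, and deposited 3 tables of known, conserved and predicted (CN) miRNAs. For each miRNA the authors deposited 2 read counts, one of its most abundant sequence and one of its isomiRs summed, with the number of isomiR kinds. Sums of isomiR reads of 7 miRNAs, none a member, were blank or below the most abundant sequence and were left out of isomiR totals. In the CN table the order of the isomiR columns was taken from the values, since as labelled the isomiR sums would be below the most abundant sequence. Another 2 columns of per-sample values were not used. The assignment of reads with mismatches to paralogs is not given in the sources used here.

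Members and lists were chosen with earlier results of these data known. RPM used the clean reads stated by the study as totals. For ratios, 3 reads stood in for a listed 0. Fisher's exact test (two-sided) set the count of each miRNA against the remaining clean reads of its library, with Bonferroni adjustment over 883 miRNAs and a threshold of 0.05. No dispersion model was fitted, since there was 1 library per condition, so edgeR 4.0.16 and DESeq2 1.42.0 (R 4.3.3) gave scaling factors alone. At this depth a member has 806 to 3115 summed reads, and the precision stands as an interval beside each ratio. Named miRNAs were the members, entries at the same hairpins or with the same seeds, mir-99, mir-100, 3 let-7 miRNAs, the nearest listed hairpins and the 2 known miRNAs nearest in level, with cell type markers beside them. Neighbours in isomiR reads were the 20 known miRNAs nearest on the log2 scale. Gene order came from RefSeq (ARS-UCD2.0), whose coordinates were not used. The test was checked on simulated Poisson counts, which hold no spread between animals or from PCR, so the check does not cover differences between cows. Alternatives were other totals and scalings, all isomiR reads, Benjamini-Hochberg adjustment, and other folds and read minimums. Sums over a pair were added after seeing the data. Computations used scipy 1.17.1, numpy 2.4.6 and pandas 2.3.3 in Python 3.11.15, and plots used matplotlib 3.10.9. Raw reads, the microarray, target prediction and RT-PCR were not analysed here.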

Additional observations from a re-analysis of the deposited data

How the results depend on the processing

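The ratio of mir-10a-5p stayed lower and called by Fisher's exact test under each alternative scaling, with all isomiR reads and with Benjamini-Hochberg adjustment. It ran from 0.236 without scaling to 0.339 with isomiR sums as totals. The summed reads of mir-10a-5p and mir-10b-5p had a ratio of 0.588. The ratios of mir-10b-5p and mir-196b-5p turned from above to below 1 with TMM factors (0.843 and 0.841), with DESeq2 size factors (0.831 and 0.829) and without scaling (0.758 and 0.756). By Fisher's exact test with Bonferroni adjustment, mir-10b-5p was then called (adjusted p from 1.48e-10 to 0.00520) and mir-196b-5p was not (from 0.0796 to 1). mir-196a-5p became called with TMM factors (0.686), with DESeq2 size factors (0.676), without scaling (0.616) and, at 0.822, with Benjamini-Hochberg adjustment (adjusted p of 0.0113 by Fisher's exact test). The scalings themselves shift the ratios of all miRNAs by 1 factor each. With all isomiR reads, mir-10b-5p over mir-196b-5p turned to 0.929 and mir-10b-5p over mir-196a-5p was no longer called, at 1.04. The mir-196a-5p share of the pair moved to 46.2% in lactating MG and 49.1% in non-lactating MG, and the 5p share of the mir-196b hairpin to 92.7% and 94.7%, lactation first. mir-196a-5p over mir-196b-5p, at 0.815, passed with Benjamini-Hochberg adjustment (0.0468 by Fisher's exact test). At a 4-fold ratio 0 of the 4 members were called, against 16.5% of the 273 miRNAs with at least 100 summed reads. By Benjamini-Hochberg adjustment Fisher's exact test called 410 miRNAs in all, against 250, and with all isomiR reads it called 331. The other 46 of 65 values kept their direction and their side of the threshold or, for counts, stayed within 1.5 times the reported count and, for shares, within the reported interval. No paired analysis was possible because each condition had 1 library, and no replicate could be left out for the same reason. Depth limits the 3p arms of the mir-10 hairpins most, with 3 to 5 reads each.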
